A study of Mus musculus with 8 samples.

Results

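The genes described here are 9 that B cells of the germinal centre express strongly: Gcsam, Mybl1, Rgs13, Bcl6, S1pr2, Nuggc, Mef2b, Fas and Neil1. A gene was taken where the array annotation assigns a probe set to its symbol alone, and the probe set with the highest mean was used. That gave 8 of the 9 genes, out of 19938 genes measured in this way in the whole series, and all 8 passed the filter on dim genes. Mef2b lies on a probe set that it shares with other genes and is not analysed here.

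Splenocytes of 8 mice were measured, 1 array per mouse. The groups were Sle1.3/E2-2het mice (3 mice), Sle1.3 mice (3 mice) and wild-type mice (WT, 2 mice), all labelled with the C57/B6 background. Sle1.3 mice are labelled as lupus mice, and Sle1.3/E2-2het mice are of the same Sle1.3 genotype and in addition haplodeficient for E2-2. E2-2 is a transcription factor, encoded by Tcf4, on which plasmacytoid dendritic cells depend. The submitters describe the plasmacytoid dendritic cells of the haplodeficient mice as not functional. No age is given, the haplodeficiency is not limited to 1 cell type by any label, and no group holds E2-2 haplodeficient mice without Sle1.3.

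The germinal centre is the site in a lymphoid follicle where activated B cells divide, mutate their antibody genes and are selected by T follicular helper cells. Bcl6 is the repressor that the programme depends on, and Mybl1 and Mef2b are further transcription factors of these cells. Gcsam, Rgs13 and S1pr2 act in signalling that governs cell motility and position. Fas is the death receptor that germinal centre B cells carry at their surface, Nuggc is a nuclear GTPase named for its expression in germinal centre B cells, and Neil1 is a DNA glycosylase of base excision repair. Lupus-prone mice form germinal centres without deliberate immunisation.

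In the mouse genome GRCm38.p6 as annotated by RefSeq, the 8 measured genes lie on 5 chromosomes. Gcsam spans chr16:45610440-45622867 and Bcl6 chr16:23965050-23988866. Mybl1 spans chr1:9667407-9700439 and Rgs13 chr1:144137386-144177372. S1pr2 spans chr9:20965952-20976793 and Neil1 chr9:57142788-57148688. Nuggc spans chr14:65593499-65648444 and Fas chr19:34290647-34327775. Each value is the summary of a probe set for the whole gene and not of a single exon.

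E2-2 is an E protein, a class of factor that binds the E-box, CANNTG. The 250 bases before the annotated start are shown for the 3 members that act in motility and position, as members with few and with many E-boxes. They are written 5′ to 3′ on the gene's strand from RefSeq, GRCm38.p6, with each E-box in capitals.
Gcsam, chr16:45610190-45610439, plus strand: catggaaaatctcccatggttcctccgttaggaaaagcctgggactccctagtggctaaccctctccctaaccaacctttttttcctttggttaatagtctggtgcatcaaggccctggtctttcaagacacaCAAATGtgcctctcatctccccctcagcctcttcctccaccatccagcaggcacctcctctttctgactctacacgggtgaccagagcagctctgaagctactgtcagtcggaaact
Rgs13, chr1:144177373-144177622, minus strand: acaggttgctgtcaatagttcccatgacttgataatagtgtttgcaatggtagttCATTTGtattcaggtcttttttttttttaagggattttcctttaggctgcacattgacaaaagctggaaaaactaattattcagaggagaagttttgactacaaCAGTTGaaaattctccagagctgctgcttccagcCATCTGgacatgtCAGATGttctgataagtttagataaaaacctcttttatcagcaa
S1pr2, chr9:20976794-20977043, minus strand: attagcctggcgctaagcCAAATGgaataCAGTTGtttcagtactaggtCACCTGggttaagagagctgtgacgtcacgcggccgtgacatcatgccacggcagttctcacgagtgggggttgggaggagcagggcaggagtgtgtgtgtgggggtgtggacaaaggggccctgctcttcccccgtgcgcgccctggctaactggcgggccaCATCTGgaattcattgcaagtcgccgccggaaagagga
Gcsam holds 1 E-box, which begins 117 bases before the start. Rgs13 holds 4, at 195, 91, 57 and 44 bases before the start, and S1pr2 holds 4, at 232, 221, 201 and 38 bases. The motif reads the same on both strands as a pattern, and 66.2% of 32851 mouse windows of this length hold at least 1, while 3.8% hold 4 or more. Windows were at hand for 7 of the 9 genes (8 windows, Mef2b included), and Mybl1 and Nuggc were not searched. In the windows not shown, Neil1 held 5 E-boxes, Fas 1 and Mef2b 1. Bcl6 held 1 before its first annotated start and 0 before its second. The form CAGGTG, which is also counted among the E-boxes, was found on either strand in the windows of S1pr2 and Neil1 alone among the 7, against 17.2% of all windows. The palindrome TTCNNNGAA, a pattern that STAT factors and Bcl6 itself can bind, was found in the windows of both annotated starts of Bcl6 and in that of Fas, against 7.0% of all windows. These are matches of letters in a window, and no binding was measured.

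The arrays fell into 2 sets that the labels do not name. Both arrays numbered 3, of either Sle1.3 genotype, had lowest linear intensities of 11.2 and 10.9, while the other 6 arrays lay between 4.57 and 5.11. All WT arrays were in the first set, and the set was therefore a term of the model beside the group. Xist, the RNA of the inactive X chromosome, had log2 intensities of 3.79, 4.29 and 11.82 over the Sle1.3/E2-2het arrays, 10.77, 10.68 and 11.90 over the Sle1.3 arrays, and 4.11 and 3.75 over the WT arrays. The third Sle1.3 array is labelled male, yet it had the Xist level of females and Kdm5d, Uty and Eif2s3y between 3.83 and 4.27, so it went against its label. In the first set, Sle1.3/E2-2het and WT mice were male and Sle1.3 mice female, so sex and the Sle1.3 comparisons cannot be told apart there. In the second set both arrays showed the female pattern. Tcf4, the targeted gene, had log2 intensities of 8.18, 8.13 and 9.25 for Sle1.3/E2-2het, 8.67, 8.63 and 9.06 for Sle1.3, and 9.02 and 8.80 for WT. For Sle1.3/E2-2het minus Sle1.3 it gave -0.27 ± 0.15 (SE, log2), which did not pass the test (limma, adjusted p = 0.575), and for Sle1.3/E2-2het minus WT it gave -0.64, which did (limma, adjusted p = 0.0163). The library labelled Sle1.3/E2-2het replicate 3 had the highest Tcf4 value of the 8, 0.19 above the Sle1.3 array of its set, while the first set differed by -0.50, so on this gene it went against its haplodeficient label. The files do not say which part of the gene the deletion or the probe set covers, and this library is named by its label in what follows, with the values of the first set alone given as those without it.

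Sle1.3/E2-2het and Sle1.3 spleens were compared as lupus-prone mice with and without haplodeficiency for E2-2, by their labels. In the first set they also differed in sex, so genotype and sex cannot be told apart there. In the second set both arrays showed the female pattern, but its Sle1.3/E2-2het array is the one with the highest Tcf4 value of all. Gcsam, Mybl1, Rgs13 and Nuggc fell in Sle1.3/E2-2het spleens, 4.07-fold for Mybl1, 3.15-fold for Gcsam, 3.00-fold for Rgs13 and 1.54-fold for Nuggc. No member rose, and Bcl6, Neil1, Fas and S1pr2 did not pass the test. Of the 8 members, 4 thus passed in the lower direction and 0 in the higher, while of the 14953 genes tested 0.615% passed, 0.461% lower and 0.154% higher. The members' median log2 difference was -0.63, and the median over all genes was 0. In a bulk sample, fewer germinal centre B cells, less RNA per cell and changes in other cells expressing these genes cannot be told apart.

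**Figure D1:**
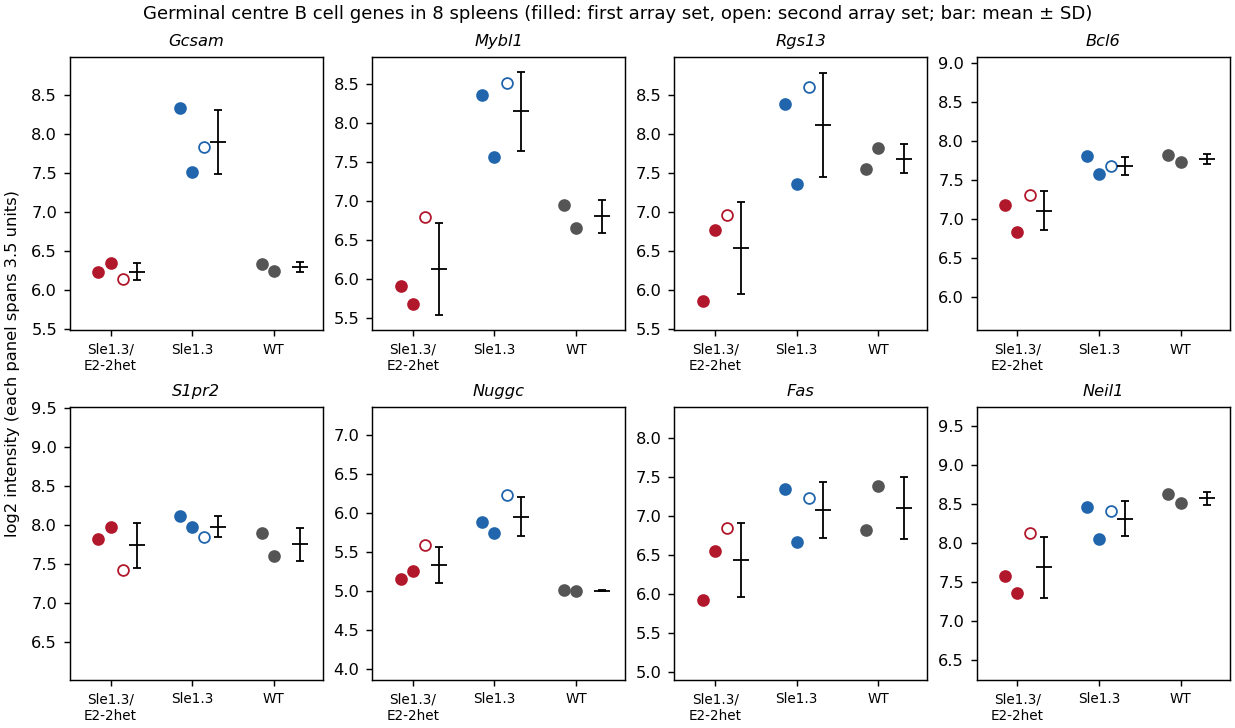
Log2 intensity (y axis) of each of the 8 measured genes in every array, with Sle1.3/E2-2het at the left, then Sle1.3, then WT. Filled points are arrays of the first set and open points those of the second, bars are the mean ± SD, and every panel spans the same range of log2 units. All 3 Sle1.3/E2-2het points of Gcsam and Mybl1 lie below all 3 Sle1.3 points, by gaps of 1.16 and 0.78.

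Mybl1, also called A-Myb, is a MYB family transcription factor with few sites of expression outside germinal centre B cells and germ cells. Its log2 intensity was 5.91, 5.67 and 6.79 across the Sle1.3/E2-2het arrays, against 8.36, 7.56 and 8.51 in the Sle1.3 arrays. The groups did not overlap, and the highest Sle1.3/E2-2het array was the one of the second set. The difference was -2.02 ± 0.19 (SE, log2; n = 3 each; limma, adjusted p = 0.00173), and it ranked 2 by p-value among all genes tested. Within the first set it was -2.17, and within the second -1.73.

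Gcsam is an adaptor protein that limits the motility of germinal centre B cells, as known mainly from its human counterpart. Its log2 intensity was 6.22, 6.34 and 6.13 across the Sle1.3/E2-2het arrays, against 8.33, 7.51 and 7.83 in the Sle1.3 arrays. The Sle1.3/E2-2het arrays spread little (SD 0.11), the Sle1.3 arrays more (SD 0.42), and the groups did not overlap. The difference was -1.65 ± 0.18 (SE, log2; limma, adjusted p = 0.00279), with -1.63 within the first set and -1.69 within the second.

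Rgs13 speeds up GTP hydrolysis on G proteins and so dampens chemokine receptor signals in germinal centre B cells. Its log2 intensity was 5.86, 6.77 and 6.96 across the Sle1.3/E2-2het arrays, against 8.38, 7.35 and 8.60 in the Sle1.3 arrays. The groups did not overlap, and the library labelled Sle1.3/E2-2het replicate 3 and the second Sle1.3 array, the nearest values, were 0.39 apart. The difference was -1.58 ± 0.26 (SE, log2; limma, adjusted p = 0.0204), and -1.55 within the first set. Between mice of the same number it was -2.53, -0.58 and -1.64, a wider spread than for Mybl1 (-2.45, -1.90 and -1.73).

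Nuggc had low intensities in every array. Its log2 values were 5.15, 5.26 and 5.59 across the Sle1.3/E2-2het arrays, against 5.89, 5.74 and 6.23 in the Sle1.3 arrays. The groups were 0.15 apart at their ends. The difference was -0.62 ± 0.11 (SE, log2; limma, adjusted p = 0.0371) and was close in both sets, at -0.61 and -0.63.

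Bcl6 and Neil1 were also lower in Sle1.3/E2-2het arrays by value, without passing the test. Bcl6 had log2 intensities of 7.18, 6.83 and 7.30 in Sle1.3/E2-2het, against 7.80, 7.57 and 7.67 in Sle1.3, with no overlap and a difference of -0.58 ± 0.14 (SE; limma, adjusted p = 0.0953). Neil1 had 7.58, 7.36 and 8.12 in Sle1.3/E2-2het, against 8.46, 8.05 and 8.41 in Sle1.3, with a difference of -0.62 ± 0.15 (SE; limma, adjusted p = 0.103). The Neil1 groups overlapped through the library labelled Sle1.3/E2-2het replicate 3 only. In the first set alone, without it, the differences were -0.68 for Bcl6 and -0.79 for Neil1. Neither was called there (limma, adjusted p = 0.157 and 0.106). With the replicate number as a block in place of the array set, both passed, at an adjusted p of 0.0337 for Bcl6 and 0.0366 for Neil1 (limma), and 6 of the 8 members were called. The labels do not say that mice of the same number were pairs.

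Fas and S1pr2 had overlapping groups over all arrays. In the first set alone their differences were -0.78 and -0.14, and neither was called (limma, adjusted p = 0.339 and 0.751). Fas had log2 intensities of 5.92, 6.55 and 6.84 in Sle1.3/E2-2het, against 7.34, 6.67 and 7.23 in Sle1.3, a difference of -0.65 ± 0.22 (SE; limma, adjusted p = 0.275). S1pr2, the sphingosine 1-phosphate receptor that holds B cells in the centre of the follicle, had 7.82, 7.97 and 7.42 in Sle1.3/E2-2het, against 8.11, 7.97 and 7.84 in Sle1.3. Its difference was -0.24 (95% interval -0.52 to 0.05; limma, adjusted p = 0.573), so the interval reached from a decrease of 0.52 to an increase of 0.05 log2 units.

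In all, 5 of the 8 members had every Sle1.3/E2-2het array below every Sle1.3 array, which 4.33% of all genes tested had. Before adjustment, 7 of the 8 had a p-value under 0.05 in the lower direction, against 6.92% of all genes (10.2% in either direction). These calls depend on the array set term: with the group alone, only Gcsam was called (adjusted p = 0.0432, limma; Mybl1 0.0982, Rgs13 0.243, Nuggc 0.574), and with the labelled sex in its place none was (limma; Gcsam 0.164, Mybl1 0.266, Rgs13 0.564). In the first set alone, without the library labelled Sle1.3/E2-2het replicate 3, Gcsam and Mybl1 were called (limma; adjusted p = 0.0119 and 0.00311) and Rgs13 (0.0883) and Nuggc (0.144) were not. With log2(value + 16) Rgs13 (adjusted p = 0.0514, limma) and Nuggc (0.0686) also lost their calls. Of the 8 fits that left out 1 array, Rgs13 lost its call in 5 (highest adjusted p = 0.0883, limma) and Nuggc in 7 (0.211). These 8 fits are not all distinct in this comparison. Leaving out either WT array gave the same values, and leaving out either array of the second set gave those of the first set alone. The same holds for such counts of other genes in this comparison below.

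**Figure D2:**
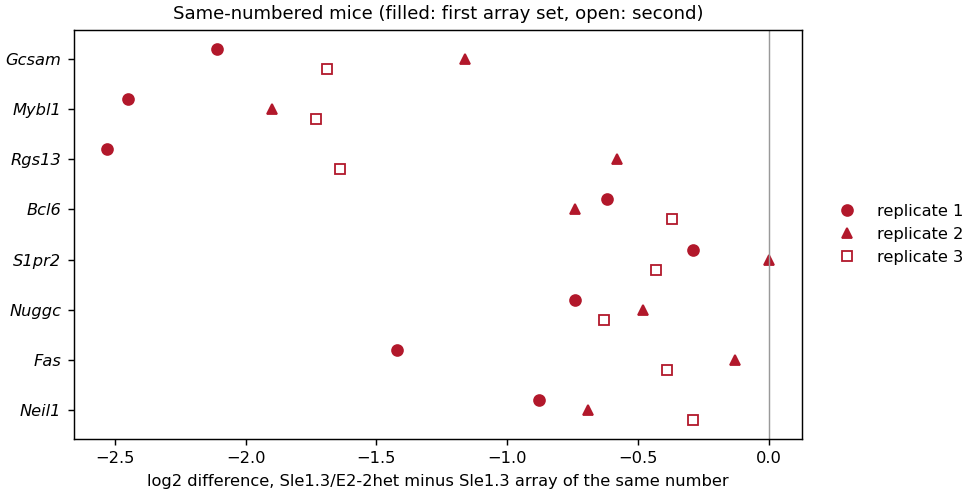
Log2 difference of each Sle1.3/E2-2het array minus the Sle1.3 array of the same number (x axis), for each of the 8 genes (y axis), with filled symbols for the first array set and open ones for the second. Mybl1 and Gcsam lie below -1 in all 3 pairs, and S1pr2 has a pair at 0.

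General B cell markers were set beside the members. The mean log2 intensity of 10 B cell markers was 10.06, 9.95 and 10.67 in Sle1.3/E2-2het, against 10.28, 10.29 and 10.58 in Sle1.3, and 0 of the 10 passed in either direction (limma; 3 had an unadjusted p under 0.05, all lower, with Cd72 at -0.51 and Cd22 at -0.47). Relative to that mean, the log2 difference of Sle1.3/E2-2het minus Sle1.3 was -1.87 for Mybl1, -1.5 for Gcsam and -1.43 for Rgs13, and between -0.08 (S1pr2) and -0.49 (Fas) for the other 5. These are descriptions with no test of their own. Over all genes, 0.615% passed in this comparison, so a count of 0 among 10 markers does not set them apart from other genes.

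Sle1.3 against WT spleens showed which members differed in the lupus mice themselves. Gcsam, Mybl1 and Nuggc rose in Sle1.3 spleens, 3.13-fold, 2.13-fold and 1.76-fold, and no member fell. Over all genes, 7.46% passed in the higher direction, against 3 of the 8 members, and 16.5% in the lower direction, against 0 members. The members' median log2 difference was 0.27, against -0.06 over all genes. All 3 Sle1.3 arrays showed the female pattern and both WT arrays the male one, so genotype and sex cannot be told apart anywhere in this comparison.

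Gcsam had log2 intensities of 8.33, 7.51 and 7.83 in Sle1.3, against 6.33 and 6.24 in WT, a difference of 1.65 ± 0.21 (SE; limma, adjusted p = 0.00085). Mybl1 had 8.36, 7.56 and 8.51 in Sle1.3, against 6.95 and 6.65 in WT, a difference of 1.09 ± 0.23 (SE; limma, adjusted p = 0.00669). Nuggc had 5.89, 5.74 and 6.23 in Sle1.3, against 5.01 and 5.0 in WT, a difference of 0.81 ± 0.13 (SE; limma, adjusted p = 0.00217). None of these groups overlapped, and the non-overlap in the higher direction was found for 21.5% of all genes. With the labelled sex in place of the array set, only Gcsam kept its call (limma; Mybl1 adjusted p = 0.181, Nuggc 0.110), and without the second WT array Mybl1 lost it (adjusted p = 0.0860, limma).

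Rgs13 averaged 8.11 ± 0.67 in Sle1.3 and 7.68 ± 0.18 in WT (SD, n = 3 and 2), and its 2 WT values of 7.55 and 7.81 lay within the Sle1.3 range. Its difference was 0.20 ± 0.31 (SE; limma, adjusted p = 0.666). Bcl6 averaged 7.68 ± 0.12 in Sle1.3 and 7.76 ± 0.06 in WT (SD; adjusted p = 0.588, limma), and Fas averaged 7.08 ± 0.36 in Sle1.3 and 7.10 ± 0.39 in WT (SD; adjusted p = 0.684, limma). S1pr2 averaged 7.97 ± 0.13 in Sle1.3 and 7.75 ± 0.21 in WT (SD; adjusted p = 0.127, limma). Neil1 averaged 8.30 ± 0.23 in Sle1.3 and 8.57 ± 0.08 in WT. All its Sle1.3 values were below both WT values, as for 24.4% of all genes, and its difference of -0.40 ± 0.18 (SE) did not pass the test (limma, adjusted p = 0.119; 0.0497 without the first Sle1.3 array).

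**Figure D3:**
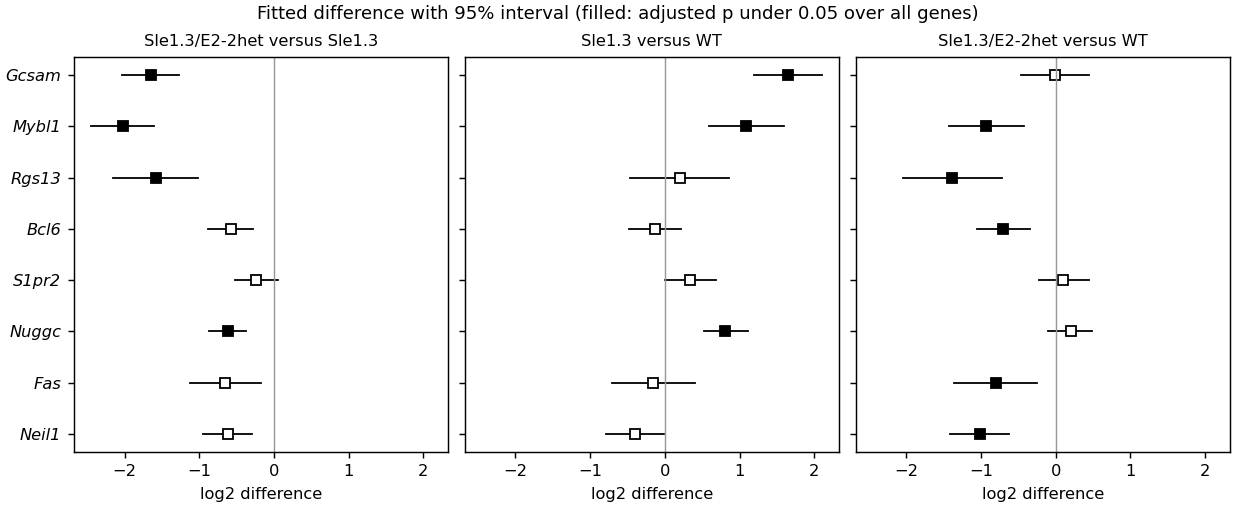
Log2 difference of each member (x axis, with its 95% interval) in the 3 comparisons, one panel each, for Sle1.3/E2-2het minus Sle1.3, Sle1.3 minus WT and Sle1.3/E2-2het minus WT. Filled points passed an adjusted p of 0.05: 4 members in the first panel, 3 in the second and 5 in the third.

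In Sle1.3/E2-2het against WT spleens, Mybl1, Rgs13, Bcl6, Fas and Neil1 fell, and no member rose. Over all genes, 23.4% passed in the lower direction, against 5 of the 8 members, and 10.7% in the higher, against 0 members. The members' median log2 difference was -0.75, against -0.09 over all genes. Over genes above the 50th percentile of mean intensity, where all members but Nuggc lie, the median was -0.28. This comparison shares its arrays with both others.

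Neil1 had log2 intensities of 7.58, 7.36 and 8.12 in Sle1.3/E2-2het, against 8.63 and 8.51 in WT, a difference of -1.02 ± 0.18 (SE; limma, adjusted p = 0.00252). Rgs13 had 5.86, 6.77 and 6.96 in Sle1.3/E2-2het, against 7.55 and 7.81 in WT, a difference of -1.39 ± 0.31 (SE; limma, adjusted p = 0.00689). Bcl6 had 7.18, 6.83 and 7.30 in Sle1.3/E2-2het, against 7.81 and 7.72 in WT, a difference of -0.71 ± 0.16 (SE; limma, adjusted p = 0.00795). These 3 had no overlap with WT, as 23.2% of all genes did in the lower direction. Mybl1 fell by 0.93 ± 0.23 log2 units (SE; limma, adjusted p = 0.0107), and Fas by 0.80 ± 0.25 (SE; limma, adjusted p = 0.0309). The library labelled Sle1.3/E2-2het replicate 3, at 6.79 for Mybl1 and 6.84 for Fas, reached into the WT range of both. In the first set, where both groups were male, the same 5 members were called (limma), and both genes were below WT in every array, with differences of -1.01 for Mybl1 and -0.87 for Fas.

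Gcsam averaged 6.23 ± 0.11 in Sle1.3/E2-2het and 6.28 ± 0.06 in WT (SD, n = 3 and 2), a difference of -0.01 with a 95% interval of -0.46 to 0.45 (limma, adjusted p = 0.982). Nuggc had 5.15, 5.26 and 5.59 in Sle1.3/E2-2het, against 5.01 and 5.0 in WT, above WT in every array, as for 25.9% of all genes, without passing the test (0.20 ± 0.13, SE; limma, adjusted p = 0.264). S1pr2 averaged 7.74 ± 0.29 in Sle1.3/E2-2het and 7.75 ± 0.21 in WT (adjusted p = 0.622, limma). With the group alone only Neil1 kept its call (limma; Mybl1 adjusted p = 0.213, Rgs13 0.0822, Bcl6 0.0582, Fas 0.166), and with the labelled sex none did (limma; from 0.0636 for Neil1 to 0.228 for Mybl1). With quantile normalization Bcl6 and Fas lost their calls (limma; adjusted p = 0.0516 and 0.0895). Without the second WT array Mybl1 (0.0501), Rgs13 (0.0835) and Fas (0.292) lost them, Mybl1 also without the first WT array (0.0674) or the second Sle1.3/E2-2het array (0.0516), and Fas without the first Sle1.3/E2-2het array (0.132).

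Across the 8 arrays the 28 pairs of members correlated between -0.10 (S1pr2 and Neil1) and 0.95 (Bcl6 and Neil1), with a median of 0.65. Gcsam and Mybl1 correlated at 0.88, and Rgs13 and Fas at 0.92. S1pr2 followed the other members least, with a correlation of 0.29 with their mean, against 0.95 for Mybl1. The mean of the members, each centred on its own mean, was -0.68, -0.55 and -0.25 for Sle1.3/E2-2het, 0.70, 0.16 and 0.65 for Sle1.3 and -0.01 and -0.03 for WT. The arrays share their groups and sets, so these values describe the pattern and carry no p-value.

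The 10 tested genes whose pattern over the 8 arrays was most like the mean of the members were Dnajc13 (r = 0.985), Havcr1 (0.966), Sirt6 (0.962), Sostdc1 (0.960), Mbd4 (0.959), Rfx5 (0.955), Ada (0.955), Fah (0.944), Tox2 (0.941) and Basp1 (0.940). They were picked over the same 8 arrays for following a mean that is low in Sle1.3/E2-2het and high in Sle1.3, so a difference of that direction is built into the choice, and their values are given with no test. Sostdc1, a secreted inhibitor of BMP and Wnt signalling, had log2 intensities of 5.67, 5.72 and 6.98 for Sle1.3/E2-2het, 8.25, 7.76 and 8.35 for Sle1.3, and 7.41 and 6.78 for WT. Havcr1, also called TIM-1, a receptor for phosphatidylserine that marks some B cells and T cells, had 5.52, 5.74 and 6.19 for Sle1.3/E2-2het, 7.06, 6.92 and 7.26 for Sle1.3, and 6.26 and 6.25 for WT. Ada, adenosine deaminase, had 5.99, 6.13 and 6.76 for Sle1.3/E2-2het, 7.38, 7.04 and 7.46 for Sle1.3, and 6.71 and 6.44 for WT. WT lay between the other groups by its mean for all 3. That position is also built into the choice, since the members' mean in WT (-0.01 and -0.03) lay between those of the other groups.

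**Figure D4:**
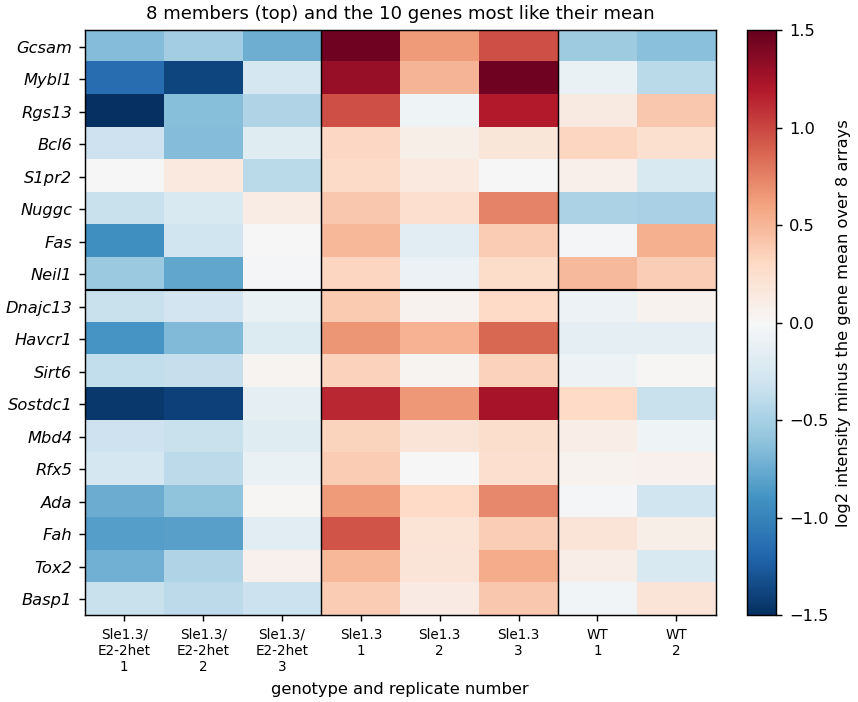
Log2 intensity of the 8 members and of the 10 genes most like their mean, each centred on its own mean over the 8 arrays (colour), with the arrays in columns from Sle1.3/E2-2het at the left to WT at the right. The mean of the members is between -0.68 and -0.25 in the Sle1.3/E2-2het columns, between 0.16 and 0.70 in the Sle1.3 columns and near 0 in the WT columns.

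Lists of other genes of the germinal centre and of the cells around it were set beside the members. Over all genes, 0.615% passed in Sle1.3/E2-2het against Sle1.3, and 10.2% had an unadjusted p under 0.05 (limma). Of 14 other germinal centre B cell genes tested, 1 fell in Sle1.3/E2-2het against Sle1.3 and 0 rose, with a median log2 difference of -0.36. The 1 was Basp1, an abundant membrane-linked protein, at -0.65 ± 0.13 (SE; limma, adjusted p = 0.0446). Its call ended in 7 of the 8 fits that left out 1 array and with the group alone (adjusted p = 0.337, limma). Of 13 partners in hypermutation, switching and repair, 0 passed in either direction (limma; 3 had an unadjusted p under 0.05, all lower), with the DNA glycosylase Mbd4 and the translesion polymerase Polh at -0.54 and -0.55. Of 12 genes that Bcl6 represses or that mark exit from the germinal centre, 0 passed (limma; 4 had an unadjusted p under 0.05, 1 of them higher), with Xbp1, a plasma cell factor, at -0.79 and S1pr1, the receptor that guides cells out, at 0.53.

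The relatives of the members mostly did not pass. With 0.615% of all genes called in this comparison, counts of 0 in such short lists do not set them apart from other genes. Of 8 genes of the Fas death pathway, 0 passed in Sle1.3/E2-2het against Sle1.3 (limma; 1 had an unadjusted p under 0.05), with the inhibitor Cflar at -0.44 and the ligand Fasl at 0.32. Of 10 sphingosine phosphate receptors and partners, 0 passed (limma; 1 unadjusted), with S1pr1 at 0.53 and S1pr4 at 0.33. Only 5 of these 10 had positive differences, and their median was 0.02. Of 5 MYB and MEF2 relatives, 0 passed (limma; 1 unadjusted), with Myb at 0.31 and Mef2a at -0.25. Of 7 other RGS proteins, 1 fell. It was Rgs16, at 6.87, 6.67 and 7.28 in Sle1.3/E2-2het and 8.02, 7.91 and 7.98 in Sle1.3, a difference of -1.03 ± 0.13 (SE; limma, adjusted p = 0.00547). The groups did not overlap, and its call held in all 8 fits that left out 1 array but not with the group alone (adjusted p = 0.112, limma).

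Markers of other cells moved beside the members. Of 10 T follicular helper genes, 2 fell in Sle1.3/E2-2het against Sle1.3: Pdcd1, the inhibitory receptor PD-1, by 1.11 ± 0.16 log2 units (SE; limma, adjusted p = 0.0115), and Tox2 by 0.79 ± 0.15 (SE; limma, adjusted p = 0.0469). The mean log2 intensity of the 11 measured genes of that list lay between 6.88 and 7.61 in Sle1.3/E2-2het and between 7.63 and 7.83 in Sle1.3. Of 11 genes of dividing cells, 1 fell, Top2a, a topoisomerase of replicating cells (-0.86 ± 0.15, SE; limma, adjusted p = 0.0288), with a median of -0.63 over the list. Of 9 plasma cell markers, 2 fell, Slpi and Mzb1 (-1.06 and -0.90). Of 6 erythroid markers, 2 rose, Slc4a1 and Alas2 (2.25 and 2.34), and the mean of that list lay between 7.34 and 7.87 in Sle1.3/E2-2het and between 6.01 and 6.74 in Sle1.3. Of 8 macrophage and monocyte markers, 1 rose, Vcam1 (1.09), but only 5 of the 8 had positive differences and the median was 0.25. C1qa, C1qb and C1qc were lower by their means. At an unadjusted p under 0.05, which 10.2% of all genes had, 8 of the 11 genes of dividing cells, 5 of the 10 T follicular helper genes and 5 of the 9 plasma cell markers were lower, with 1 plasma cell marker higher, and 4 of the 6 erythroid markers and 1 of the 8 macrophage markers were higher.

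In 6 further lists 0 genes passed the threshold (limma), with their counts at an unadjusted p under 0.05 as follows. Of 8 natural killer cell markers 6 were higher and 0 lower, all 8 had positive differences, the median was 0.74, and the granzymes Gzma and Gzmb were at 1.11 and 0.94. Of 9 T cell markers 3 were higher and 2 lower, the median was 0.01, and the coreceptors Cd4 and Cd8a were at -0.75 and 0.48. Of 10 neutrophil markers 4 were lower and 0 higher, the median was -0.51, and the granule proteases Prtn3 and Elane were at -1.08 and -1.12. Of 5 mast cell and basophil markers 2 were lower and 0 higher, the median was -0.66, and the proteases Mcpt8 and Prss34 were at -1.22 and -0.74. Of the 5 follicular dendritic cell genes and the 7 plasmacytoid dendritic cell markers 0 had such a p-value, the medians were 0.21 and 0.09, Cr2 and Fcer2a were at 0.29 and 0.28, and Ccr9 and Ly6d at 0.30 and 0.32.

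Of the genes called in the T follicular helper, dividing cell, plasma cell, erythroid and macrophage lists, none was called with the group alone (limma; Slc4a1 at 0.0982, Pdcd1 at 0.243), and leaving out 1 array ended the call of Pdcd1 once (0.0661, without the first Sle1.3 array), of Slpi, Mzb1 and Alas2 in 4 of 8 fits, of Slc4a1 in 3, of Top2a and Vcam1 in 6 and of Tox2 in 7. The part of these cells in the members' differences was not tested.

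**Figure D5:**
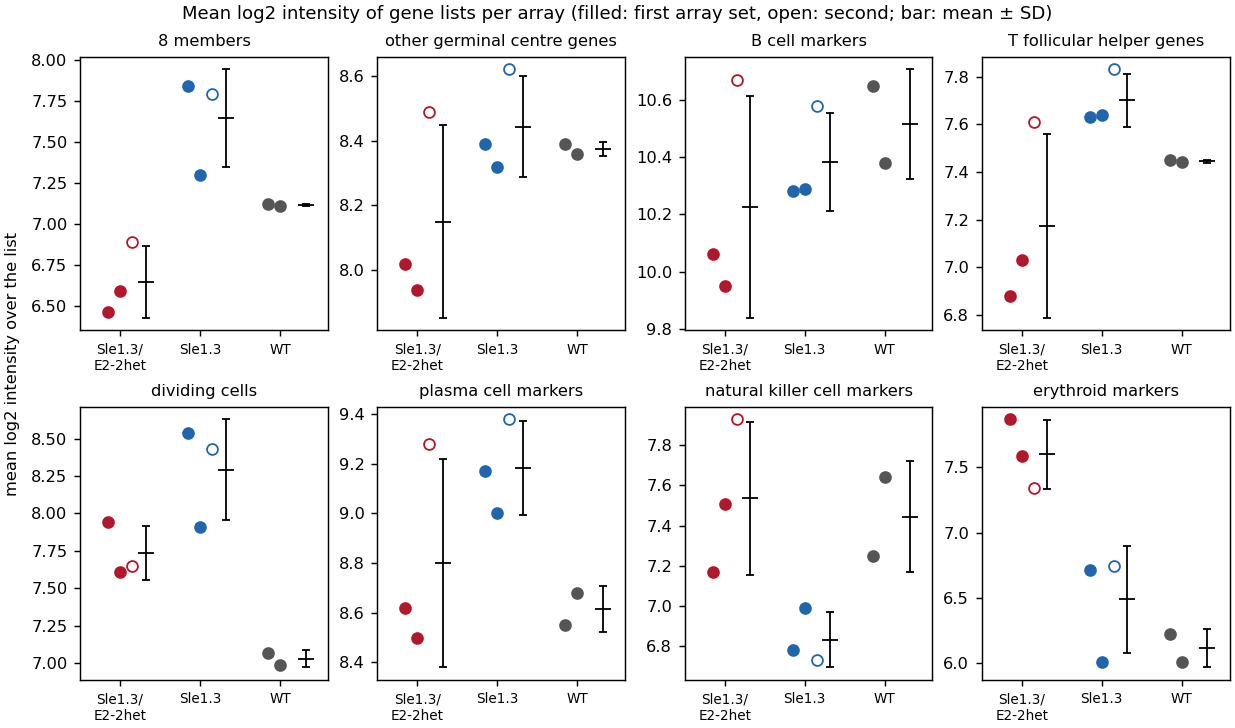
Mean log2 intensity (y axis) of each of 8 gene lists in every array, with Sle1.3/E2-2het at the left, then Sle1.3, then WT. Filled points are arrays of the first set and open points those of the second, bars are the mean ± SD, and the y axes differ between panels.

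In Sle1.3 against WT, 11 of the 11 genes of dividing cells rose, with a median of 1.41, for example Mki67 at 1.63 ± 0.23 (SE; limma, adjusted p = 0.00115). Of the 10 neutrophil markers, 10 rose, with a median of 3.24. Of the other germinal centre B cell genes, 2 rose and 4 fell, among them Lmo2, a transcription cofactor (0.65 ± 0.14, SE; limma, adjusted p = 0.00776), and Il21r, the receptor for interleukin 21 (-1.16 ± 0.17, SE; limma, adjusted p = 0.00147). None of the 10 T follicular helper genes passed (limma; 3 had an unadjusted p under 0.05, against 38.0% of all genes). In Sle1.3/E2-2het against WT, 1 of the 14 other germinal centre genes rose and 5 fell. Among them was Bach2, a repressor that restrains plasma cell formation, at -1.22 ± 0.21 (SE; limma, adjusted p = 0.00217). Of the 10 B cell markers, 5 fell there, with a median of -0.49, and 3 fell in Sle1.3 against WT, with a median of -0.18. Dividing cell and neutrophil genes rose in Sle1.3/E2-2het against WT as well, 7 of 11 and 10 of 10, with medians of 0.81 and 2.33. Over all genes, 24.0% passed in Sle1.3 against WT and 34.1% in Sle1.3/E2-2het against WT.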

How the data were processed

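Splenocytes were measured on Affymetrix Mouse Gene 1.0 ST arrays. RNA was taken up in Trizol LS after collagenase and DNase digestion of the spleen, and 250 ng entered labelling, per the labels' protocols. The deposited table holds intensities on a linear scale for 35556 probe sets, and RMA and Affymetrix Expression Console are the tools that the submitters' processing notes name. Versions, roles and annotation build are not given in the sources used here. The table gives no background level, and precision is limited by the number of arrays. The labels do not say whether mice of a group were litter mates, so p-values measure the spread between these mice.

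Here log2 was taken. Of the probe sets, 21789 had 1 symbol, 1621 several and 12146 none; those with 1 gave 19938 genes, each by the probe set with the highest mean, and 14953 above the 25th percentile (log2 5.01) were tested. Two-sided tests used lmFit and eBayes of limma 3.58.1 (R 4.3.3) on all 8 arrays with group and array set (split at a lowest linear intensity of 8), leaving 4 residual degrees of freedom, with Benjamini-Hochberg adjustment over all tested genes and a threshold of 0.05. The array set was used in place of the labelled sex because the third Sle1.3 array went against its label. Sle1.3/E2-2het arrays and the Sle1.3 arrays of the same number deviated together (r = 0.573, 0.369 and 0.618 across genes). The labels do not explain the numbers, and the main model held no term for them. Arrays of the same number were set against each other only to describe differences by number. In the tests, the number entered only as the replicate block of an alternative fit.

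The members, the 19 other lists and the choice of model were made with earlier results of these data known. All members were named; of each other list, the genes past the threshold, up to 3 with the smallest p-values, and where none passed the 2 with the smallest, of which those given for the WT comparisons are a selection made after their values were seen; and the 10 genes most like the members' mean. The lists covered other germinal centre B cell genes, hypermutation and repair, Bcl6-repressed and exit genes, the Fas pathway, sphingosine phosphate receptors, RGS proteins, MYB and MEF2 relatives, T follicular helper, follicular dendritic, dividing, B, plasma, T, natural killer, neutrophil, erythroid, macrophage, mast cell and plasmacytoid dendritic cell genes. Alternatives were other covariates, filters, normalizations and leaving out each array.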

Additional observations from a re-analysis of the deposited data

How the results depend on the processing

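The number of called genes among the 14953 tested (92, 3585 and 5092 for Sle1.3/E2-2het against Sle1.3, Sle1.3 against WT and Sle1.3/E2-2het against WT) and of called members (4, 3 and 5) depended on the covariates. With the group alone, 2, 879 and 1076 genes and 1, 3 and 1 members were called. With the labelled sex, 0, 199 and 492 genes were called by limma, against 392, 2687 and 3887 at an unadjusted p under 0.05, and 0, 1 and 0 members. With the replicate block in place of the array set, 262, 4410 and 6008 genes and 6, 3 and 5 members were called; beside Bcl6 and Neil1 in Sle1.3/E2-2het against Sle1.3 it changed no call of a member. In the first array set alone, 79, 2367 and 5086 genes and 2, 3 and 5 members were called. With quantile normalization the counts were 89, 2229 and 2780 genes and 4, 3 and 3 members, and with log2(value + 16) they were 59, 3490 and 4904 genes and 2, 3 and 5 members (Rgs13 and Nuggc lost). Leaving out 1 array at a time gave 26 to 165, 1107 to 3649 and 1634 to 5214 genes, and 2 to 4, 2 to 4 and 2 to 5 members. Without the second Sle1.3 array 165 genes were called in Sle1.3/E2-2het against Sle1.3, and 26 without the second Sle1.3/E2-2het array, 28 without the first Sle1.3 array and 36 without either WT array. Sle1.3 against WT gave 1107 without the second WT array, 1810 without the first Sle1.3 array and 2367 without either array of the second set, and Sle1.3/E2-2het against WT gave 1634 without the second WT array and 3320 and 3051 without the first and second Sle1.3/E2-2het arrays. In Sle1.3/E2-2het against Sle1.3, Gcsam and Mybl1 kept their calls in all 8 omissions (-1.90 to -1.42 and -2.21 to -1.75). Directions turned only for members that had not passed: in Sle1.3/E2-2het against WT, S1pr2 was -0.01 with the group alone and -0.05 to 0.25 over the omissions, and Gcsam was 0 in the first set alone and -0.06 to 0.05 over the omissions; in Sle1.3 against WT, Bcl6 was 0.06 with quantile normalization, Fas -0.44 to 0.12 and Rgs13 -0.16 to 0.58 over the omissions. Quantile normalization changed the split of Sle1.3 against WT to 935 higher and 1294 lower, from 1115 and 2470, and median centring that of Sle1.3/E2-2het against WT to 1177 higher and 4335 lower, from 1599 and 3493. The cause of these shifts was not tested. The filter at the 50th percentile, no filter, median centring, the mean of all probe sets and an intensity trend kept the total gene counts within 1.5 times, but not those of higher calls alone. Over the 3 comparisons these were 23, 1115 and 1599, against 22, 473 and 576 with the 50th percentile, 16, 1898 and 2920 with no filter and 11, 961 and 1177 with median centring, so the shares of higher calls given as background move with these choices. Lower calls were 69, 2470 and 3493, against 63, 2252 and 3243 with the 50th percentile, over a smaller set of tested genes. The median over all genes was -0.04, -0.20 and -0.28 there, against 0, -0.06 and -0.09. The 50th percentile left Nuggc out, with 3, 2 and 5 members called. With 2 WT arrays and no background level, low intensities such as those of Nuggc have no detection limit here.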
